A study of Mus musculus with 9 samples.

Results

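The comparison asked what any injection of exosomes changed in the testis of busulfan-treated mice, whatever the source of the exosomes. It set 6 exosome libraries against 3 PBS libraries. All mice carried germ cell depletion by busulfan, an alkylating drug that kills dividing germ cells. The PBS side (BP 5, 6 and 7) had busulfan and the saline carrier. The exosome side held BE 6, 7 and 8 (label EXO+Busulfan), given blood exosomes of wild-type mice, and BdE 5, 6 and 7 (label dEXO+Busulfan), given those of mice whose intestinal microbiota was out of balance. The labels state no strain, age, dose or time of sampling. They also do not tie replicates to single animals, so a p-value here speaks only of the spread from sample to sample. Genes entered with an FPKM, a count scaled by gene length and library total, of 1 or more in at least 3 of 9 libraries. This kept 14570 of 55401 genes. A gene under 1 in all 3 PBS libraries could enter only through exosome libraries at 1 or more, which favours a rise. Levels below are FPKM, and differences are log2 fold changes of the count model, exosome minus PBS, unless another scale is named.

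Exosomes are small vesicles that cells release and that other cells take up by fusion or endocytosis. The testis holds seminiferous tubules, in which Sertoli cells carry germ cells from spermatogonia through meiosis to spermatids, wrapped by contractile peritubular myoid cells. Between the tubules lie Leydig cells, which turn cholesterol into testosterone, beside macrophages, vessels and stroma.

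Library totals ran from 57923652 to 70103125 counts, so that 3 counts, the limit a count of 0 allows, equal 0.0428 to 0.0518 CPM (counts scaled by the library total; counting error only). The tissue label was checked against markers. Sox9, a Sertoli cell factor, lay at 34.1 to 40.2 in the PBS libraries and 32.3 to 36.9 in the exosome libraries. The summed FPKM of 16 photoreceptor genes, included because the extraction text speaks of retina, was 13.5 to 17.4 in every library. BP 5 held 718 FPKM summed over 13 epididymis genes against 17.1 to 37.7 elsewhere, and its part in the results was not tested beyond leaving it out.

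BE 6 stood apart from the other exosome libraries. On the first principal component it lay at -39.4, among the PBS libraries (-41.1 to -36.4), with the other 5 exosome libraries at 9.54 to 52.0. Of the 6 exosome libraries it was the one nearest to PBS in 47.6% of genes. Mitochondrial transcripts took 7.19% of counts in BE 6 (Wilson 95% interval 7.188 to 7.2, which covers counting error only and not the spread between samples), 7.52% ± 0.46 with PBS (SD, n = 3) and 13.25% ± 1.19 in the other exosome libraries (SD, n = 5). Results are therefore given with and without BE 6. Leaving it out was one of 9 leave-one-out fits, and it is singled out because of where it lay, a choice that its p-values take no account of.

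With all 9 libraries 2 genes changed, Ccdc71 and Abl1, and both rose (0.0137% of genes tested, edgeR quasi-likelihood test, two-sided, adjusted p under 0.05). No gene fell past the threshold, while 1983 of 14570 genes were lower and 2064 higher at an unadjusted p under 0.05 (27.8% in all). DESeq2 called 1032 genes, 672 higher and 360 lower. The 6 exosome libraries lay all above the 3 PBS libraries in 598 genes (4.1%) and all below them in 672 (4.61%). The median log2 fold change of all genes tested was 0.01.

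Ccdc71 is a gene for a coiled-coil protein. It was at 5.1, 4.62 and 6.31 in BP 5, 6 and 7, 18.2, 16.9 and 16.8 in BE 6, 7 and 8, and 18.9, 16.1 and 17.6 in BdE 5, 6 and 7 (FPKM). All 6 exosome libraries, BE 6 included, lay close together and well above every PBS library. The mean FPKM was 5.34 ± 0.871 (SD, n = 3) with PBS and 17.4 ± 1.02 (SD, n = 6) with exosomes (log2 fold change 1.78, SE 0.12, edgeR adjusted p = 0.00103). Each kind of exosome gave nearly the same value against the shared PBS libraries, 1.76 (SE 0.138, edgeR adjusted p = 0.0118) for BE and 1.79 (SE 0.138, edgeR adjusted p = 0.0105) for BdE. Those calls ended in 4 of 12 alternatives for BE (without BP 6, BE 8 or BdE 7 and with a replicate block, edgeR adjusted p 0.0613 to 0.70) and in 2 of 12 for BdE (without BP 6, 0.073, and with the block, 0.172), at log2 fold changes of 1.67 or more. The pooled rise passed in 25 of 25 alternatives run, at log2 fold changes of 1.53 to 1.93.

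Ccdc71 spans chr9:108460527-108465938 on the plus strand of GRCm38 and overlaps Klhdc8b, a kelch-domain gene on the other strand. The sources used here do not say whether counting used the strand, so reads of the pair cannot be told apart. Klhdc8b was at 11.6, 10.1 and 10.2 in BP 5, 6 and 7, 10.4, 15.5 and 14.2 in BE 6, 7 and 8, and 15.99, 14.0 and 13.5 in BdE 5, 6 and 7 (FPKM). It lay at the PBS level in BE 6, where Ccdc71 was high, and above it in the other 5 exosome libraries (log2 fold change 0.47, SE 0.141, edgeR adjusted p = 0.141). The start region of Ccdc71 is shown because this gene kept its pooled call in every setting. RefSeq (GRCm38.p6) places one start of the gene so that the window from 250 bases before it to 50 after it is chr9:108460303-108460602, plus strand. Capitals mark the letters CCAAT or their reverse complement ATTGG, the CCAAT box bound by nuclear factor Y.

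Ccdc71: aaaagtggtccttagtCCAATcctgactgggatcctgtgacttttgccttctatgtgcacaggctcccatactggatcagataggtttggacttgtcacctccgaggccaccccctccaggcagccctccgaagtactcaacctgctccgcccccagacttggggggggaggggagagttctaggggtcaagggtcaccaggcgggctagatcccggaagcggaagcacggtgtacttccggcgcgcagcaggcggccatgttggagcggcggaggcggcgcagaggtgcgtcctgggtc

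The window holds 1 such match. RefSeq lists another start, whose window (chr9:108452252-108452551) holds 0. CCAAT on either strand is found in 41.1% of all 27025 genes with a promoter entry, so the match is a description of these letters only.

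Abl1, a tyrosine kinase of cytoskeletal and DNA damage signalling on chromosome 2 (chr2:31688376-31800339), was at 3.57, 4.5 and 4.52 in BP 5, 6 and 7, 13.4, 9.85 and 9.43 in BE 6, 7 and 8, and 9.29, 9.74 and 9.63 in BdE 5, 6 and 7 (FPKM). Every exosome library lay above every PBS library, and BE 6 was the highest of all. The mean FPKM was 4.2 ± 0.54 (SD, n = 3) with PBS and 10.2 ± 1.56 (SD, n = 6) with exosomes (log2 fold change 1.35, SE 0.129, edgeR adjusted p = 0.0121). Without BE 6 the value was 1.28 (SE 0.094, edgeR adjusted p = 6.89e-04). The call ended without BP 6 (edgeR adjusted p = 0.0703), BP 7 (0.0532) or BE 7 (0.0507) and with a replicate block (0.12), with the log2 fold change between 1.33 and 1.42 in each. BE against PBS gave 1.44 (SE 0.139, edgeR adjusted p = 0.0312) and BdE against the same PBS libraries 1.26 (SE 0.138, edgeR adjusted p = 0.0559). The BE value passed in only 4 of 12 alternatives and the BdE value in 3 of 12. With a replicate block the BE value had an edgeR adjusted p of 0.70.

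Described next are 8 genes that lay higher and 9 that lay lower in all 6 exosome libraries, taken by the naming rule by smallest p among genes that did not pass. Tekt2, a tektin of the sperm tail's microtubules, was at 0.981, 0.665 and 0.776 in BP 5, 6 and 7, 2.14, 2.52 and 2.12 in BE 6, 7 and 8, and 2.1, 1.67 and 1.96 in BdE 5, 6 and 7 (FPKM). Every exosome library was above the highest PBS library, with no overlap (log2 fold change 1.43, SE 0.201, edgeR adjusted p = 0.12). Mapk15, an atypical MAP kinase with a role at cilia, lay at 0.246 to 0.556 in the PBS libraries and 0.87 to 1.54 in the exosome libraries (log2 fold change 1.60, SE 0.29, edgeR adjusted p = 0.141). Tekt2 and Mapk15 were under 1 in every PBS library and entered the test through exosome libraries only. Slc39a9, a zinc transporter that also binds androgen, was at 1.15 to 1.76 in PBS, 1.88 in BE 6 and 3.89 to 4.86 in the other 5 exosome libraries (log2 fold change 1.52, SE 0.311, edgeR adjusted p = 0.141), so that BE 6 lay just above the PBS range. Ube2g2, a ubiquitin-conjugating enzyme of protein degradation at the endoplasmic reticulum, was at 9.43 to 13.6 in the PBS libraries and 15.8 to 25.3 in the exosome libraries (log2 fold change 1.08, SE 0.161, edgeR adjusted p = 0.136). It passed without BE 8, its lowest exosome library (edgeR adjusted p = 0.0454).

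The other 4 higher genes differed less in size. Eif5a, a translation factor, was at 108 to 122 in the PBS libraries and 137 to 156 in the exosome libraries (log2 fold change 0.44, SE 0.0792, edgeR adjusted p = 0.141). Rps6kb2, an S6 kinase, had a log2 fold change of 0.60 (SE 0.127), and Sarnp, an RNA-binding protein of mRNA export, one of 0.51 (SE 0.10). Ubxn11, a UBX-domain gene, stood at 0.75 (SE 0.159). For these 4 genes the edgeR adjusted p was 0.141 with all 9 libraries. Without BE 6 all of them passed, at adjusted p of 0.00148 (Rps6kb2) to 0.00566 (Sarnp).

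Il6st codes for gp130, the receptor subunit shared by the interleukin 6 family. Its FPKM was 18.9, 19.7 and 17.6 in BP 5, 6 and 7, 11.6, 9.93 and 11.4 in BE 6, 7 and 8, and 10.3, 12.9 and 10.8 in BdE 5, 6 and 7. No exosome library reached the lowest PBS library, and BE 6 lay within the range of the other exosome libraries. The difference came closest of all lower genes named to the threshold (log2 fold change -0.67, SE 0.0822, edgeR adjusted p = 0.0646). It passed without BdE 6 (edgeR adjusted p = 0.0419) and without BE 6 (0.00151).

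Dcaf17, a substrate receptor of a cullin ubiquitin ligase that mouse spermatogenesis needs, was at 3.17, 3.0 and 2.64 in BP 5, 6 and 7, 1.56, 0.634 and 0.533 in BE 6, 7 and 8, and 0.815, 0.762 and 0.706 in BdE 5, 6 and 7 (FPKM). All exosome libraries lay below PBS, with BE 6 between the sides (log2 fold change -1.75, SE 0.267, edgeR adjusted p = 0.136). Septin7, a cytoskeletal GTPase, was at 5.85 to 7.43 in PBS, 5.1 in BE 6 and 2.24 to 3.21 in the other 5 exosome libraries (log2 fold change -1.02, SE 0.197, edgeR adjusted p = 0.141), also with BE 6 between the sides. Evi5l, which regulates Rab proteins, lay at 17.5 to 20.8 in PBS, 13.3 in BE 6 and 9.35 to 11.6 in the other 5 exosome libraries (log2 fold change -0.70, SE 0.0957, edgeR adjusted p = 0.119). Fcgrt, the neonatal Fc receptor that recycles antibodies, was at 25.3 to 26.9 in the PBS libraries and 12.8 to 18.7 in the exosome libraries (log2 fold change -0.65, SE 0.114, edgeR adjusted p = 0.141).

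The other lower genes differed less in size. Tbx3, a T-box transcription factor, had a log2 fold change of -0.49 (SE 0.0812), and Ncoa6, a nuclear receptor coactivator, one of -0.47 (SE 0.0871). Zfp639, a zinc finger gene, stood at -0.51 (SE 0.0896) and LTO1, a gene of ribosome maturation known from yeast, at -0.51 (SE 0.0919). The edgeR adjusted p was 0.141 for each of them. Besides Ccdc71, 9 of the 19 genes described above overlap another tested gene and may share reads with it: Sarnp, Slc39a9, Rps6kb2, Ubxn11, Evi5l, Dcaf17, Tbx3, Zfp639 and LTO1. These 19 genes kept their direction in 472 of 472 pairs of gene and alternative. The naming rule took only genes whose sides do not overlap, so a change of direction was hardly possible.

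**Figure D1:**
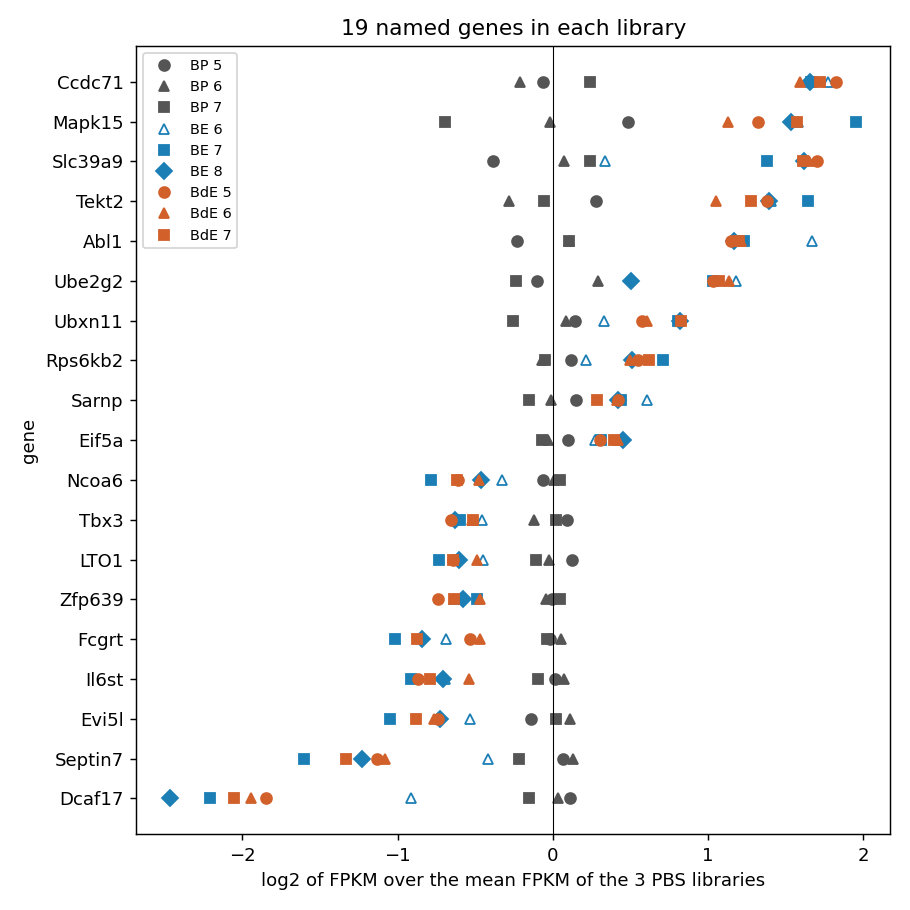
The 19 genes (rows) that the naming rule took and the text describes, in each library: the x axis is the log2 of FPKM over the mean FPKM of the 3 PBS libraries, 1 point for each library, with BE 6 as an open triangle. Ccdc71 and Abl1 passed the threshold. In Slc39a9, Septin7 and Dcaf17, for example, BE 6 lies between the PBS points and the other exosome points, as it does in Evi5l, Ubxn11 and Tbx3.

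Without BE 6 the same test called 4982 genes (34.2%), 2393 higher and 2589 lower, against 2 with it. The 5 remaining exosome libraries stood wholly above or below PBS in 5711 genes (39.2%). Methods added after seeing the data called 5841 (DESeq2), 5083 (limma on log2(FPKM+1)) and 4616 genes (length trend taken out) on the same 8 libraries. The naming rule applied to that fit added 17 genes. In 15 of them BE 6 was nearer to the PBS mean than to the mean of the other 5 exosome libraries, and in 11 it lay within the PBS range. The fit that named these genes left BE 6 out, and genes that the pooled rule also took are not among them. The counts of 15 and 11 are shaped by that choice and are no separate evidence about BE 6.

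Ablim1, an actin-binding LIM protein, was at 3.75, 4.95 and 3.98 in BP 5, 6 and 7, 2.44, 0.295 and 0.375 in BE 6, 7 and 8, and 0.413, 0.453 and 0.271 in BdE 5, 6 and 7 (FPKM). The other 5 exosome libraries were far below PBS and BE 6 lay between, nearer to PBS (log2 fold change -3.45, SE 0.177, edgeR adjusted p = 2.33e-04 without BE 6; log2 fold change -2.54, SE 0.649, edgeR adjusted p = 0.141 with it). Steap3, an endosomal iron reductase, was at 2.4 to 3.24 in PBS, 2.84 in BE 6 and 0.207 to 0.524 in the other 5 exosome libraries, and fell without BE 6 (log2 fold change -2.76, SE 0.262, edgeR adjusted p = 8.77e-04). With BE 6 its log2 fold change was -1.75 (SE 0.712, edgeR adjusted p = 0.156), and BE 6 lay inside the PBS range.

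Zfp260, a zinc finger transcription factor, was at 2.02 to 5.17 in PBS, 4.12 in BE 6 and 0.104 to 0.864 in the other 5 exosome libraries (log2 fold change -3.38, SE 0.62, edgeR adjusted p = 0.00516 without BE 6 and 0.214 with it). Usp49, a deubiquitinase of histone H2B, was at 0.716 to 0.888 in PBS, 0.852 in BE 6 and 1.5 to 3.26 in the other 5 exosome libraries (log2 fold change 1.72, SE 0.263, edgeR adjusted p = 0.00272 without BE 6 and 0.141 with it). Amn1, named for a yeast regulator of mitotic exit, was at 0.458 to 0.504 in PBS, 0.434 in BE 6 and 1.22 to 1.53 in the other 5 exosome libraries (log2 fold change 1.62, SE 0.106, edgeR adjusted p = 4.81e-04 without BE 6 and 0.141 with it). In Zfp260, Usp49 and Amn1 BE 6 was close to PBS. Usp49 and Amn1 were under 1 in every PBS library and entered the test through exosome libraries only.

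The 3 widest falls that the rule named without BE 6 were in Cd300ld3, Cd300ld4 and Cd300ld5, neighbouring genes of the Cd300 family of myeloid receptors on chromosome 11. Cd300ld5 was at 3.03, 5.51 and 4.43 in BP 5, 6 and 7, 5.21, 0.147 and 0.218 in BE 6, 7 and 8, and 0.409, 0.225 and 0.372 in BdE 5, 6 and 7. The PBS libraries and BE 6 were high and the other 5 exosome libraries near 0 (log2 fold change -3.85, SE 0.357, edgeR adjusted p = 8.56e-04 without BE 6; 0.234 with it). Cd300ld3 (log2 fold change -3.97, SE 1.04, edgeR adjusted p = 0.0205) and Cd300ld4 (log2 fold change -3.68, SE 0.716, edgeR adjusted p = 0.00649) fell too. Cd300ld3 had 0 counts in BE 7 and BE 8 and Cd300ld4 had 0 in BdE 7, so their fitted fold changes depend on the model's prior count. The 3 genes are alike in sequence and counting may have split or shared their reads, so they are uncertain as separate results.

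Ust, a sulfotransferase of matrix glycosaminoglycans, was at 2.79 to 8.34 in PBS, 7.26 in BE 6 and 0.307 to 1.67 in the other 5 exosome libraries and Vgll3, a cofactor of TEAD transcription factors, at 2.25 to 6.35 in PBS, 4.38 in BE 6 and 0.301 to 1.08 in the other 5 exosome libraries. Both fell without BE 6 (log2 fold changes -2.49 and -2.45, edgeR adjusted p 0.00812 and 0.00401), and not with it (0.212 and 0.192). Among the rises, Yy2, a zinc finger gene that overlaps Mbtps2, was at 0.00231 to 0.324 in PBS, 0.103 in BE 6 and 1.37 to 1.58 in the other 5 exosome libraries (edgeR adjusted p 0.023 without BE 6 and 0.147 with it). Yy2 was under 1 in every PBS library and entered the test through exosome libraries only. Snhg20, a host gene of small nucleolar RNAs, was at 2.09 to 6.02 in PBS, 2.55 in BE 6 and 11.8 to 15.9 in the other 5 exosome libraries (log2 fold change 1.62, SE 0.328, edgeR adjusted p = 0.00762 without BE 6; 0.149 with it).

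In Gsg1, Spata18 and Egfl8 BE 6 too lay above PBS, though none passed with all libraries (edgeR adjusted p = 0.141 in each). Each of them was under 1 in every PBS library and entered the test through exosome libraries only. Gsg1, a germ cell gene that overlaps Fam234b, was at 0.0898 to 0.617 in PBS, 1.35 in BE 6 and 0.685 to 2.21 in the other 5 exosome libraries (log2 fold change 2.34, SE 0.648, edgeR adjusted p = 0.0251 without BE 6). Spata18, a gene of mitochondrial quality control that is high in testis, was at 0.528 to 0.713 in PBS, 1.67 in BE 6 and 0.705 to 3.55 in the other 5 exosome libraries (log2 fold change 1.79, SE 0.494, edgeR adjusted p = 0.0249 without BE 6). Egfl8, an EGF-like gene that overlaps Agpat1, was at 0.514 to 0.668 in PBS, 0.854 in BE 6 and 1.26 to 2.09 in the other 5 exosome libraries (log2 fold change 1.55, SE 0.243, edgeR adjusted p = 0.00299 without BE 6).

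**Figure D2:**
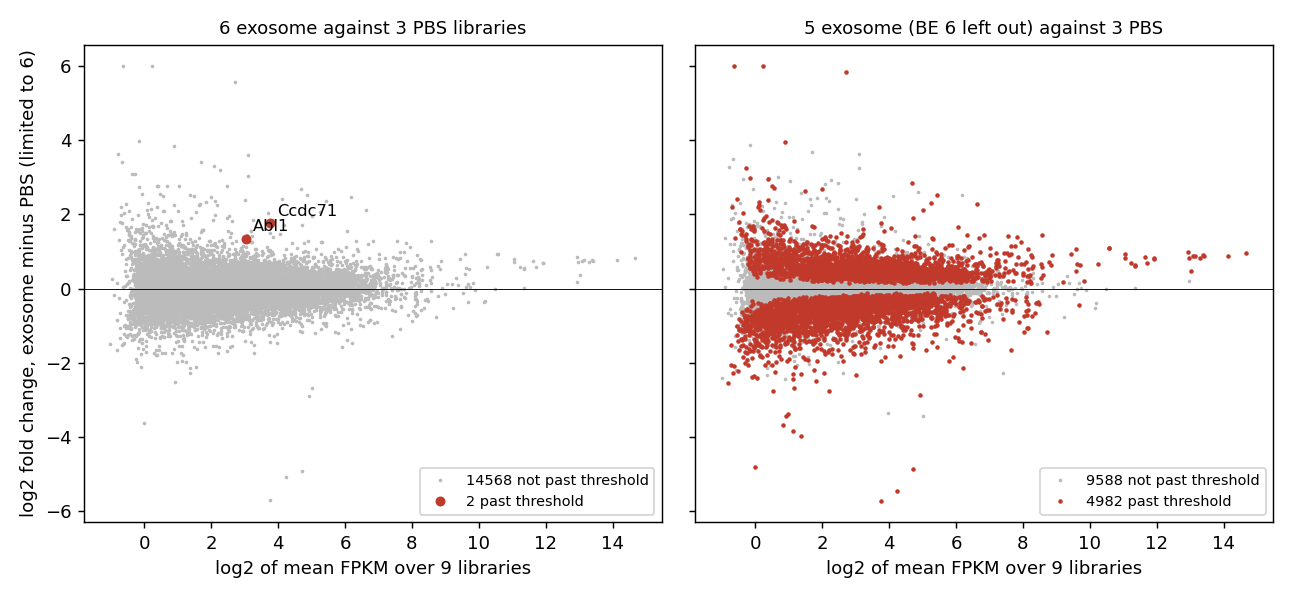
Log2 fold change, exosome minus PBS (y axis, limited to 6), against the log2 of mean FPKM (x axis) for 14570 genes, with all 9 libraries on the left and without BE 6 on the right. Red points passed an adjusted p of 0.05: 2 on the left and 4982 on the right.

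Among the cell types, the contractile genes of peritubular myoid cells stood lower with the smallest role of BE 6. The median log2 fold change of the 13 members tested was -0.49, 12 of 13 were negative, and 7 of 13 lay below PBS in all 6 exosome libraries, against 4.61% of all genes. None passed with all libraries, and 8 of 13 fell without BE 6 (17.8% of all genes), where the median was -0.58. In bulk RNA fewer cells of a type and less RNA per cell cannot be told apart.

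Des codes for desmin, the intermediate filament of muscle-like cells. Its FPKM was 9.81, 10.3 and 10.5 in BP 5, 6 and 7, 8.7, 3.63 and 3.77 in BE 6, 7 and 8, and 6.08, 5.35 and 4.87 in BdE 5, 6 and 7. BE 6 was the highest of the exosome libraries and still below PBS (log2 fold change -0.85, SE 0.227, edgeR adjusted p = 0.141). Lmod1, an actin nucleator of smooth muscle, was at 6.88 to 7.56 in PBS, 6.15 in BE 6 and 2.31 to 4.16 in the other 5 exosome libraries (log2 fold change -0.92, SE 0.254, edgeR adjusted p = 0.141). Actg2 and Acta2, the smooth muscle actins, had log2 fold changes of -0.62 (SE 0.159) and -0.50 (SE 0.164), both at an edgeR adjusted p of 0.141. Without BE 6 Des, Lmod1, Actg2 and Acta2 passed (edgeR adjusted p 0.00265 to 0.0179). Myl9, a myosin light chain and the most abundant of the named members, was at 294 to 307 in the PBS libraries and 125 to 319 in the exosome libraries (log2 fold change -0.09, SE 0.241, edgeR adjusted p = 0.823), and its sign turned to 0.054 without BE 7, its lowest library.

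Genes of cholesterol synthesis and uptake were lower as a group in 5 exosome libraries and not in BE 6. Their summed FPKM was 492.6 to 528 with PBS, 559.9 in BE 6 and 234 to 377 in the other 5. The median log2 fold change of 24 members tested was -0.64 with all libraries and -0.88 without BE 6, beside 0.01 for all genes tested in both fits. Of the 24, 23 were negative and 1 lay below PBS in all 6 exosome libraries, against 4.61% of all genes. Without BE 6, 14 of 24 fell and 0 rose (17.8% and 16.4% of all genes).

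Sqle, the squalene epoxidase, was at 10.7, 11.3 and 11.6 in BP 5, 6 and 7, 13.4, 2.7 and 2.59 in BE 6, 7 and 8, and 3.01, 5.31 and 3.16 in BdE 5, 6 and 7 (FPKM). The 5 low libraries do not overlap PBS, and BE 6 was the highest of all 9 (log2 fold change -1.66, SE 0.214, edgeR adjusted p = 0.00171 without BE 6; log2 fold change -1.11, SE 0.482, edgeR adjusted p = 0.172 with it). Cyp51, the lanosterol demethylase, was at 28.0 to 34.1 in PBS, 32.9 in BE 6 and 8.8 to 18.2 in the other 5 exosome libraries (log2 fold change -1.34, SE 0.217, edgeR adjusted p = 0.00328 without BE 6). With BE 6 the edgeR adjusted p of Cyp51 was 0.149.

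Scap, the escort of the sterol-sensing transcription factors, was at 27.95 to 28.8 in PBS, 30.1 in BE 6 and 15.1 to 19.9 in the other 5 exosome libraries and fell without BE 6 (log2 fold change -0.67, SE 0.0789, edgeR adjusted p = 0.00139). Msmo1, a methylsterol oxidase, differed from these in that BE 6 did not depart from the rest. It was at 24.95, 26.02 and 25.7 in BP 5, 6 and 7, 16.6, 17.6 and 16.7 in BE 6, 7 and 8, and 16.3, 22.7 and 17.9 in BdE 5, 6 and 7 (FPKM), every exosome library below every PBS library (log2 fold change -0.43, SE 0.107, edgeR adjusted p = 0.141; 0.017 without BE 6). Hmgcs1, which makes the HMG-CoA that feeds the pathway and was chosen for its promoter letters after its values were seen, was at 57.2 to 69.4 in PBS, 61.6 in BE 6 and 29.6 to 45.6 in the other 5 exosome libraries (log2 fold change -0.72, SE 0.133, edgeR adjusted p = 0.0053 without BE 6; 0.141 with it).

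The starts of 3 of these genes are shown because the pathway's members lay low together. Windows run from 250 bases before to 50 after the RefSeq start (GRCm38.p6), each read 5′ to 3′ on the gene's strand. Capitals mark CCAAT or ATTGG, and TCACNCCAC or its reverse complement GTGGNGTGA, letters of the sterol regulatory element. Hmgcs1 is chr13:119690101-119690400 (plus), Cyp51 is chr5:4104648-4104947 (minus) and Msmo1 is chr8:64733529-64733828 (minus).

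Hmgcs1: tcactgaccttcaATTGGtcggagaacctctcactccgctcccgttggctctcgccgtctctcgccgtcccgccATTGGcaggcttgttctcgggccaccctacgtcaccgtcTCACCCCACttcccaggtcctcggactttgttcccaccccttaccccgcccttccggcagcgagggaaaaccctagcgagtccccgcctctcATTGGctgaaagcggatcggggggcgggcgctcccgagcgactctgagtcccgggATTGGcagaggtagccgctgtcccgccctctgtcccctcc

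Cyp51: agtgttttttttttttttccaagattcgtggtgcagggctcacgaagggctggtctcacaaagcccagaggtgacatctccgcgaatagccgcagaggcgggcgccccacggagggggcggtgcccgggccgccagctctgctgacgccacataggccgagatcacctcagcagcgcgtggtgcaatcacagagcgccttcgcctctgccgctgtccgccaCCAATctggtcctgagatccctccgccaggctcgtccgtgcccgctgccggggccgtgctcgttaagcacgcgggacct

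Msmo1: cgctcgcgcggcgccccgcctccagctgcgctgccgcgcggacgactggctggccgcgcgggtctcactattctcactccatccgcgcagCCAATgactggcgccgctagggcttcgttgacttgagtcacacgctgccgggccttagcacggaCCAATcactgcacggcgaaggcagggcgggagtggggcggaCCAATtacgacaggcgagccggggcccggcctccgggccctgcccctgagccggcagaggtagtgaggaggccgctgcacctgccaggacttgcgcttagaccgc

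Of the 24 cholesterol genes tested 17 had a promoter entry. CCAAT on either strand was in 16 of these 17 (94.1%), against 42.4% of the genes tested that had an entry and 41.1% of all genes with one. Hmgcs1 held 4 such matches, Msmo1 3 and Cyp51 1. The sterol element letters were in 1 of the 17, Hmgcs1, against 1.44% of all genes with an entry. A match is a description of letters and not of binding.

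Fatty acid genes were also low in 5 exosome libraries, and BE 6 was again the exception in most. The median of 22 members tested was -0.44 with all libraries and -0.57 without BE 6, where 18 of 22 fell and 0 rose (17.8% and 16.4% of all genes). With all libraries 0 of 22 passed and 2 of 22 lay below PBS throughout, against 4.61% of all genes. Fads2, a desaturase of polyunsaturated fatty acids, was at 373 to 402 in PBS, 460.4 in BE 6 and 132 to 205 in the other 5 exosome libraries (log2 fold change -1.07, SE 0.121, edgeR adjusted p = 0.00128 without BE 6; 0.169 with it). Me1, the malic enzyme that supplies NADPH, was at 252 to 265 in PBS, 271 in BE 6 and 145 to 181 in the other 5 exosome libraries (log2 fold change -0.59, SE 0.069, edgeR adjusted p = 0.00139 without BE 6; 0.142 with it). Acadl, an acyl-CoA dehydrogenase of fatty acid oxidation, lay below PBS in all 6 exosome libraries, but by little (log2 fold change -0.17, SE 0.0667, edgeR adjusted p = 0.151).

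Leydig cell genes had a median log2 fold change of -0.55 over 16 members, and -0.70 without BE 6, where 10 of 16 fell and 0 rose (17.8% and 16.4% of all genes). With all libraries 0 of 16 passed and 1 of 16 lay below PBS throughout, against 4.61% of all genes. Hsd3b1, which makes progesterone and androstenedione from their precursors, was at 379.8, 372 and 368 in BP 5, 6 and 7, 288, 153 and 195 in BE 6, 7 and 8, and 261, 240.1 and 219.9 in BdE 5, 6 and 7 (FPKM). It lay below PBS in every exosome library, with BE 6 the highest of the 6 (log2 fold change -0.65, SE 0.153, edgeR adjusted p = 0.141; 0.00731 without BE 6). Star, which carries cholesterol into mitochondria, was at 118 to 176 in PBS, 176 in BE 6 and 46.9 to 87.4 in the other 5 exosome libraries (log2 fold change -1.19, SE 0.199, edgeR adjusted p = 0.00368 without BE 6; 0.167 with it). Cyp11a1, which cleaves the cholesterol side chain, was at 158 to 201 in PBS, 233 in BE 6 and 32.7 to 123 in the other 5 exosome libraries (log2 fold change -1.39, SE 0.395, edgeR adjusted p = 0.0277 without BE 6; 0.272 with it).

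Cyp17a1, the enzyme that opens the androgen branch, was at 571 to 627 in PBS, 761 in BE 6 and 172 to 394 in the other 5 exosome libraries, so that BE 6 lay above PBS. It fell without BE 6 (log2 fold change -1.17, SE 0.26, edgeR adjusted p = 0.0108), and Lhcgr, the receptor of luteinizing hormone, did too (log2 fold change -1.03, SE 0.193, edgeR adjusted p = 0.00561); with BE 6 their edgeR adjusted p was 0.246 and 0.209. Insl3, the peptide hormone of Leydig cells and the most abundant member, did not move with them. It was at 7152 to 8022 in the PBS libraries and 6994 to 9655 in the exosome libraries (log2 fold change 0.17, SE 0.128, edgeR adjusted p = 0.379), and its sign turned with quantile normalization (-0.41) and with the length trend taken out (-0.013).

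Kit, a receptor kinase of Leydig cells, spermatogonia and mast cells, was at 13.5 to 14.2 in PBS, 14.5 in BE 6 and 4.41 to 7.75 in the other 5 exosome libraries (log2 fold change -1.06, SE 0.148, edgeR adjusted p = 0.00203 without BE 6; 0.144 with it).

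Macrophage and stromal genes lay lower in the 5 exosome libraries other than BE 6. The macrophage median was -0.49 over 16 members, with 15 of 16 negative, and 11 of 16 fell without BE 6 (17.8% of all genes). With all libraries 0 of 16 passed and 1 of 16 lay below PBS throughout, against 4.61% of all genes. Adgre1, the macrophage marker F4/80, was at 5.55, 6.38 and 6.03 in BP 5, 6 and 7, 6.86, 1.21 and 1.26 in BE 6, 7 and 8, and 1.81, 1.72 and 1.22 in BdE 5, 6 and 7 (FPKM). BE 6 was the highest library and the other exosome libraries were all under the lowest PBS library (log2 fold change -1.96, SE 0.157, edgeR adjusted p = 6.97e-04 without BE 6; log2 fold change -1.31, SE 0.523, edgeR adjusted p = 0.154 with it). Lyz2, the lysozyme of myeloid cells, was at 169.7 to 176 in PBS, 178 in BE 6 and 40.4 to 87.5 in the other 5 exosome libraries (log2 fold change -1.22, SE 0.222, edgeR adjusted p = 0.00497 without BE 6; 0.147 with it). C1qb, a chain of complement C1q, lay below PBS in all 6 exosome libraries (log2 fold change -0.30, SE 0.124, edgeR adjusted p = 0.156).

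The stromal fibroblast median was -0.48 over 11 members, all of them negative, and 8 of 11 fell without BE 6 (17.8% of all genes). With all libraries 0 of 11 passed and 1 of 11 lay below PBS throughout, against 4.61% of all genes. The median was weakest, at -0.31, with the length trend taken out and a replicate block. Tcf21, a transcription factor of testis stroma, was at 17.2 to 17.6 in the PBS libraries and 7.34 to 14.8 in the exosome libraries without overlap (log2 fold change -0.69, SE 0.195, edgeR adjusted p = 0.141; 0.00788 without BE 6). Dcn, the matrix proteoglycan decorin, was at 61.9 to 73.3 in PBS, 71.3 in BE 6 and 29.4 to 51.2 in the other 5 exosome libraries (log2 fold change -0.74, SE 0.16, edgeR adjusted p = 0.00969 without BE 6; 0.166 with it). Col3a1, a fibrillar collagen, was at 11.03 to 12.9 in PBS, 14.4 in BE 6 and 4.7 to 6.38 in the other 5 exosome libraries (log2 fold change -1.03, SE 0.096, edgeR adjusted p = 8.68e-04 without BE 6; 0.164 with it). Laminins and integrins, which join cells to the basement membrane, had a median of -0.51 over 20 members, and 13 of 20 fell without BE 6 (17.8% of all genes). With all libraries 0 of 20 passed and 1 of 20 lay below PBS throughout, against 4.61% of all genes.

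The Sertoli cell list had a median near that of all genes and a higher summed level in the 5 exosome libraries other than BE 6. The median log2 fold change was 0.11 over 22 members. Without BE 6, 6 rose and 2 fell (16.4% and 17.8% of all genes). With all libraries 0 of 22 stood apart between the sides, against 8.72% of all genes. The median was 0.037 without BdE 5 and ran from 0.024 to 0.20 over the alternatives. The summed FPKM of the list was 6552 to 6893 with PBS, 6442 in BE 6 and 7875 to 8663 in the other 5. Sox9 had a log2 fold change of -0.066 (SE 0.0815, edgeR adjusted p = 0.602). The 15 blood-testis barrier genes had a median of 0.0073, which ran from -0.093 to 0.051 over the alternatives.

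Some interferon-stimulated genes lay higher with exosomes, but the list as a whole did so in BE 6 and BdE 6, and was near or below PBS in the other 4. Its summed FPKM was 83.1 to 91.2 with PBS, 97.6 in BE 6, 128.5 in BdE 6 and 76.8 to 91.3 in the other 4. The median log2 fold change was 0.30 over 15 members (0.27 without BE 6, and as low as 0.13 with limma on log2(FPKM+1) there), and 4 of 15 lay above PBS in all 6 exosome libraries, against 4.1% of all genes. Oas2, an antiviral oligoadenylate synthetase, was at 1.66, 1.49 and 1.37 in BP 5, 6 and 7, 2.36, 2.48 and 2.45 in BE 6, 7 and 8, and 2.81, 4.86 and 2.68 in BdE 5, 6 and 7 (FPKM). All exosome libraries exceeded PBS, and BdE 6 was the highest (log2 fold change 1.03, SE 0.241, edgeR adjusted p = 0.141). Ifit3, which binds viral RNA complexes, was at 4.12 to 4.39 in the PBS libraries and 4.75 to 9.84 in the exosome libraries (log2 fold change 0.74, SE 0.209, edgeR adjusted p = 0.141), and Irf7, the factor that drives interferon genes, at 1.79 to 2.11 in the PBS libraries and 2.31 to 3.78 in the exosome libraries (log2 fold change 0.69, SE 0.176, edgeR adjusted p = 0.141). Without BE 6 Oas2, Irf7 and Ifit3 rose (edgeR adjusted p 0.00535 to 0.0297).

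In the summed level of elongating spermatid genes BdE 5, and not BE 6, lay below PBS. The summed FPKM of 14 elongating spermatid genes was 45.3, 43.8 and 46.2 in BP 5, 6 and 7, 150.3, 326 and 89.1 in BE 6, 7 and 8, and 22.1, 242 and 235 in BdE 5, 6 and 7. Of the 14, 8 were tested, all positive, with a median of 2.04 and 2.28 without BdE 5, and 1.17 with limma on log2(FPKM+1). A gene under 1 FPKM in every PBS library could enter only through exosome libraries, which favours positive values among the members tested. None passed with all libraries, and none stood apart between the sides (0.0137% and 8.72% of all genes). Prm1, the protamine that packs sperm DNA, did not pass the filter. Its counts were 0, 0 and 4 in BP 5, 6 and 7 and 0, 19 and 17 in BE 6, 7 and 8. In BdE 5, 6 and 7 they were 21, 4 and 10. Unlike the sum of the list, Prm1 was highest in BdE 5 and at 0 in BE 6.

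Smcp, a protein of the sperm mitochondrial capsule, was at 19.1, 19.3 and 18.2 in BP 5, 6 and 7, 88.4, 185 and 42.3 in BE 6, 7 and 8, and 2.03, 142 and 137 in BdE 5, 6 and 7 (FPKM). The other 5 exosome libraries stood above all PBS libraries, and BdE 5 below them (log2 fold change 2.48, SE 1.0, edgeR adjusted p = 0.155). Odf1, an outer dense fibre protein of the tail, likewise lay above PBS in 5 exosome libraries and below it in BdE 5. It was at 8.72, 6.7 and 6.42 in BP 5, 6 and 7, 31.9, 79.5 and 18.2 in BE 6, 7 and 8, and 1.01, 53.7 and 54.5 in BdE 5, 6 and 7 (log2 fold change 2.53, SE 0.984, edgeR adjusted p = 0.149). Both SEs were near 1 on the log2 scale.

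**Figure D3:**
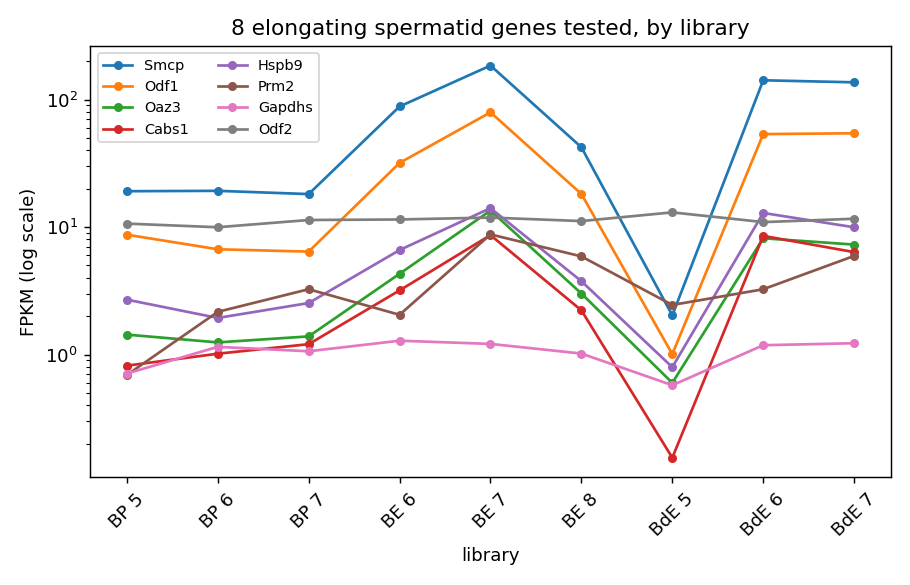
FPKM (y axis, log scale) of the 8 elongating spermatid genes tested, in each of the 9 libraries (x axis). Smcp, Odf1, Oaz3, Cabs1 and Hspb9 are low in the PBS libraries, high in 5 exosome libraries and lowest in BdE 5.

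Other germ cell genes varied within each side. Sycp3, a part of the synaptonemal complex of meiosis, was at 3.9, 2.75 and 0.378 in BP 5, 6 and 7, 5.64, 5.28 and 1.14 in BE 6, 7 and 8, and 1.91, 3.98 and 3.02 in BdE 5, 6 and 7 (FPKM). BP 7 and BE 8 were the lowest libraries of their groups and the sides overlapped (log2 fold change 0.65, SE 0.672, edgeR adjusted p = 0.525). Spag6, a protein of the sperm axoneme, lay above PBS in all exosome libraries, at 0.608 to 0.651 in the PBS libraries and 0.747 to 1.68 in the exosome libraries (log2 fold change 0.93, SE 0.287, edgeR adjusted p = 0.141). Spaca1, a membrane protein of the acrosome, was at 2.88 to 3.82 in the PBS libraries and 3.9 to 6.66 in the exosome libraries without overlap (log2 fold change 0.73, SE 0.20, edgeR adjusted p = 0.141), and Tssk3, a kinase of late spermatids, at 0.187 to 0.786 in the PBS libraries and 0.469 to 2.49 in the exosome libraries with overlap (log2 fold change 1.56, SE 0.587, edgeR adjusted p = 0.147). Id4, a marker of spermatogonial stem cells that Sertoli cells also express, was at 5.95 to 6.97 in the PBS libraries and 7.07 to 10.4 in the exosome libraries (log2 fold change 0.51, SE 0.145, edgeR adjusted p = 0.141). Of the 16 genes of its list, undifferentiated spermatogonia, 5 were tested, 3 positive and 2 negative. Their median was 0.37 and ran from -0.17 to 0.55 over the alternatives, so Id4 does not stand for the list. Spag6, Spaca1 and Id4 passed without BE 6 (edgeR adjusted p 0.00587 to 0.0136). Spag6 and Tssk3 were under 1 in every PBS library and entered the test through exosome libraries only.

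**Figure D4:**
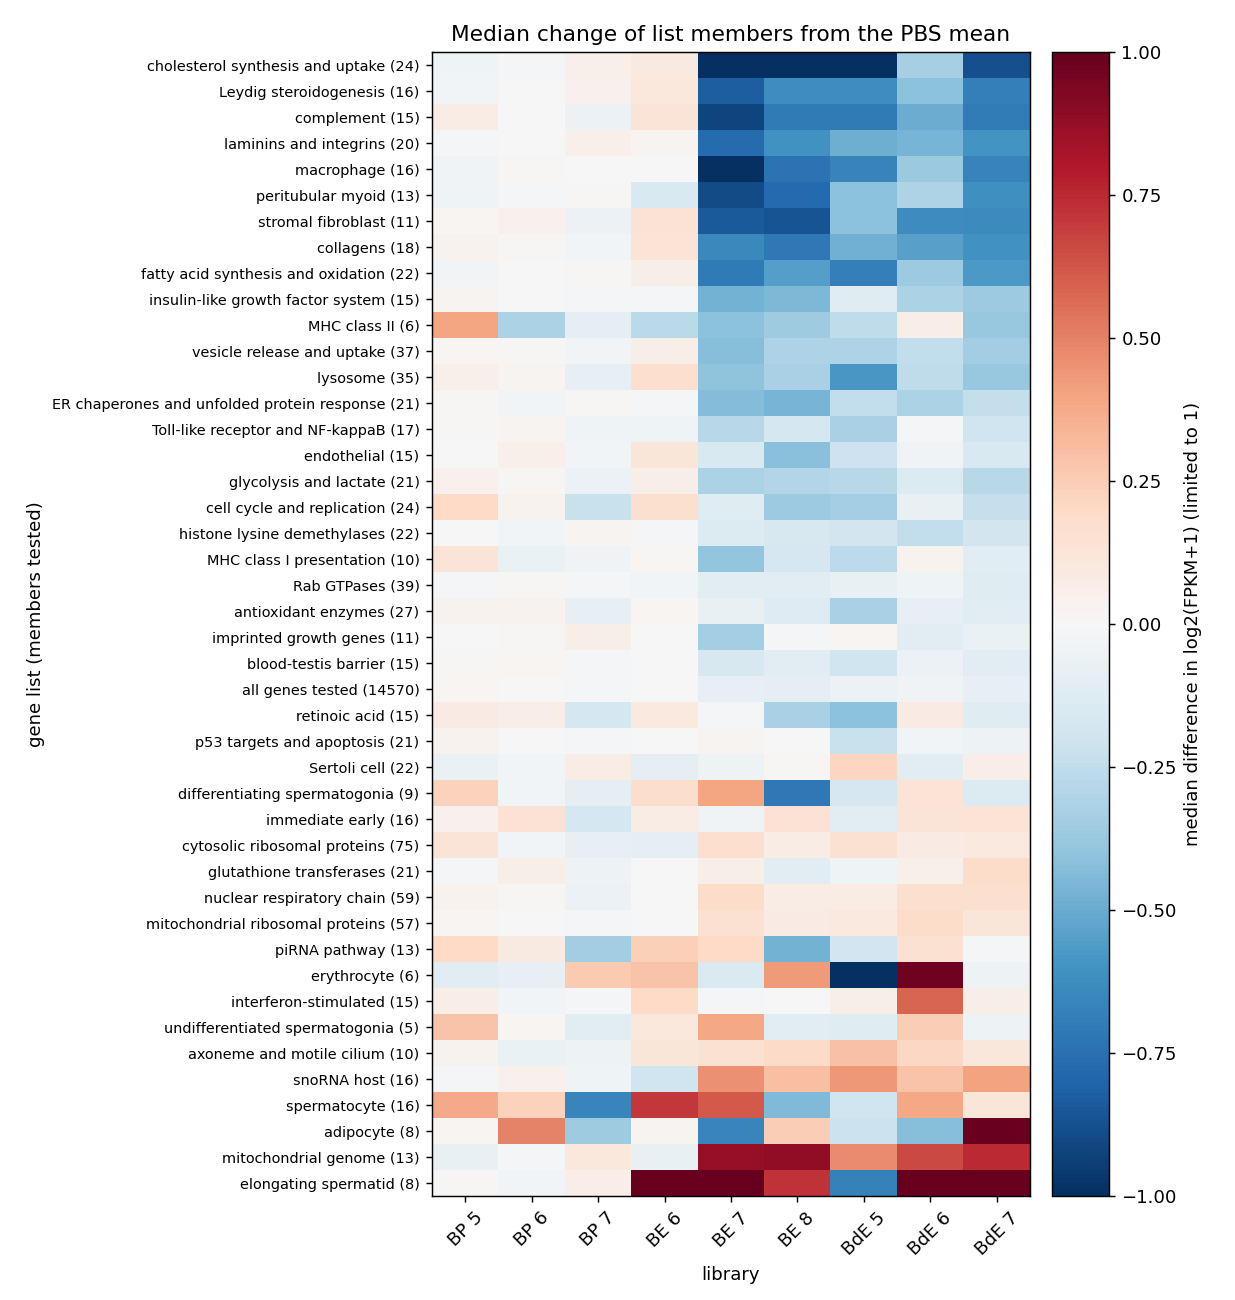
Median difference from the PBS mean in log2(FPKM+1) (colour, limited to 1) for each gene list with at least 5 members tested (y axis) in each library (x axis). Cholesterol, Leydig, macrophage and matrix lists are blue in the exosome libraries other than BE 6, and the elongating spermatid list is red in those other than BdE 5.

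Transcripts of the mitochondrial genome, which codes for core subunits of the respiratory chain, lay higher in 5 exosome libraries. All 13 were positive, with a median of 0.71 (0.20 with quantile normalization), and all 13 rose without BE 6 (16.4% of all genes), with a median of 0.82. None stood apart between the sides with BE 6 in (8.72% of all genes). mt-Co1, a subunit of cytochrome c oxidase, was at 17209.7, 17739 and 19176 in BP 5, 6 and 7, 17318, 36092 and 34980.4 in BE 6, 7 and 8, and 30650.3, 30128 and 33344 in BdE 5, 6 and 7 (FPKM). BE 6 lay in the PBS range and the other exosome libraries far above it (log2 fold change 0.96, SE 0.152, edgeR adjusted p = 0.00304 without BE 6; log2 fold change 0.84, SE 0.267, edgeR adjusted p = 0.141 with it). With quantile normalization mt-Co1, the most abundant gene of every library, had a log2 fold change of 0.00. mt-Nd1, a subunit of complex I, was at 4702 to 5675 in PBS, 5129 in BE 6 and 8967 to 10952 in the other 5 exosome libraries (log2 fold change 0.99, SE 0.124, edgeR adjusted p = 0.00159 without BE 6).

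Nuclear genes of the same machinery moved less. The 59 respiratory chain genes had a median of 0.19, and without BE 6 28 rose and 4 fell (16.4% and 17.8% of all genes). With the length trend taken out that median was 0.088. The 57 mitochondrial ribosomal proteins had a median of 0.22, and without BE 6 23 rose and 0 fell (16.4% and 17.8% of all genes). With limma on log2(FPKM+1) it was 0.105. With all libraries 2 of the 59 and 6 of the 57 lay above PBS throughout, against 4.1% of all genes. Below PBS throughout were 0 of the 59 and 1 of the 57, against 4.61%. Ndufs7 of complex I was at 10.97 to 12.1 in the PBS libraries and 12.1 to 16.6 in the exosome libraries (log2 fold change 0.36, SE 0.13, edgeR adjusted p = 0.144). Mrpl38, of the large mitochondrial ribosomal subunit, was at 15.3 to 15.9 in the PBS libraries and 15.9 to 20.7 in the exosome libraries (log2 fold change 0.36, SE 0.112, edgeR adjusted p = 0.141), and Mrpl32, of the same subunit, at 2.3 to 2.48 in the PBS libraries and 2.56 to 5.53 in the exosome libraries (log2 fold change 0.61, SE 0.236, edgeR adjusted p = 0.15). In these 3 genes all 6 exosome libraries lay above PBS, the trait they were named for. BE 6 was barely above the highest PBS library in Mrpl38 (15.930 against 15.926) and Ndufs7 (12.12 against 12.07). The 3 genes passed without BE 6 (edgeR adjusted p 0.00397 to 0.0387).

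Genes of vesicle release and uptake, the machinery that makes and receives exosomes, had a median of -0.21 over 37 members. With all libraries 4 of 37 lay below PBS throughout and 0 above (4.61% and 4.1% of all genes). Without BE 6 17 of 37 fell and 3 rose (17.8% and 16.4%). Cavin1, a coat protein of caveolae, was at 41.7, 41.7 and 39.6 in BP 5, 6 and 7, 38.7, 23.7 and 27.9 in BE 6, 7 and 8, and 30.2, 31.1 and 25.6 in BdE 5, 6 and 7 (FPKM). BE 6 lay just under the lowest PBS library and the other 5 far lower (log2 fold change -0.40, SE 0.117, edgeR adjusted p = 0.141; 0.00388 without BE 6).

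Cltc, the clathrin heavy chain of coated vesicles, was at 28.1 to 30.2 in PBS, 30.7 in BE 6 and 14.2 to 16.2 in the other 5 exosome libraries (log2 fold change -0.88, SE 0.0485, edgeR adjusted p = 2.70e-04 without BE 6; 0.141 with it). The tetraspanins Cd82 and Cd81, found on exosomes, had log2 fold changes of -0.34 (SE 0.0991) and -0.39 (SE 0.127), each at an edgeR adjusted p of 0.141. Lamp1, a membrane protein of lysosomes, was at 183 to 206 in PBS, 218 in BE 6 and 112 to 139 in the other 5 exosome libraries (log2 fold change -0.56, SE 0.0716, edgeR adjusted p = 0.00167 without BE 6; 0.157 with it). Rab3d, a GTPase of secretory granules, was at 9.45 to 9.92 in the PBS libraries and 3.24 to 8.61 in the exosome libraries (log2 fold change -0.87, SE 0.242, edgeR adjusted p = 0.141), and Rab8a, a GTPase of membrane traffic, at 11.8 to 12.8 in the PBS libraries and 8.1 to 10.9 in the exosome libraries (log2 fold change -0.34, SE 0.0902, edgeR adjusted p = 0.141). The 39 Rab GTPases as a whole had a median of -0.056, and 5 of 39 lay below PBS throughout (4.61% of all genes). That median turned to 0.039 with the length trend taken out.

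Pooling takes the 2 kinds of exosome as 1 side. With 3 libraries of each, and BE 6 far from BE 7 and BE 8, few calls between the kinds do not show that they are alike. BdE against BE called 1 gene (0.00686%), and 340 genes (2.33%) had an unadjusted p under 0.05, 176 higher in BdE (1.21%) and 164 lower (1.13%). The gene was Prrc2b, an RNA-binding protein of translation, named after its values were seen. Its FPKM was 4.91, 5.59 and 6.07 in BP 5, 6 and 7, 6.92, 7.67 and 7.19 in BE 6, 7 and 8, and 1.78, 2.3 and 1.59 in BdE 5, 6 and 7. BE lay above PBS and BdE below it, with no overlap among the 3 groups (BdE minus BE -1.94, SE 0.156, edgeR adjusted p = 0.0146). The call ended in 4 of 12 alternatives, without BP 6 (0.0719), BE 8 (0.0585) or BdE 7 (0.0618) and with a replicate block (0.554), at -1.84 to -1.94. The pooled exosome minus PBS value was -0.20 (SE 0.536, edgeR adjusted p = 0.825). Against the shared PBS libraries BE called 2 genes (0.0137%) and BdE 1 (0.00686%).

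The differences ran with gene length. Among the 2914 shortest genes tested the median difference from the PBS mean was 0.21 to 0.29 log2 CPM in the 5 exosome libraries other than BE 6, and among the 2914 longest -0.15 to -0.10. BE 6 was at -0.03 and 0.01. With all libraries 4.98% of the 2914 shortest genes and 3.33% of the longest lay above PBS throughout, and 2.75% and 6.18% below. The median length was 0.892 kb for mitochondrial genes, 5.13 kb for cholesterol genes, 3.32 kb for macrophage genes and 4.12 kb for all genes tested. With the length trend taken out and BE 6 left out, 4616 genes were called, and the medians were -0.76 (cholesterol), -0.69 (macrophage), -0.47 (myoid) and 0.63 (mitochondrial genome). The nuclear respiratory chain median was 0.27 without BE 6, and 0.10 with the length trend taken out as well.

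**Figure D5:**
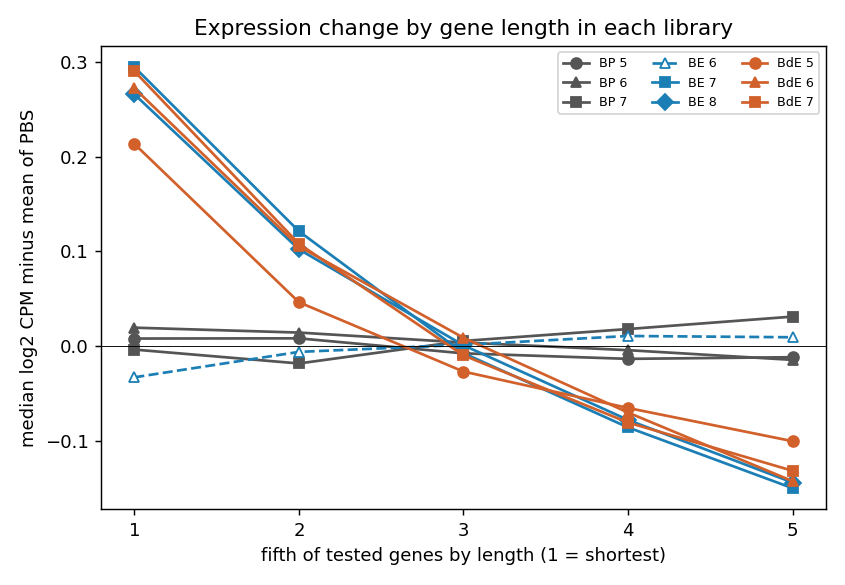
Median log2 CPM minus the PBS mean (y axis) in 5 equal bins of the genes tested by length (x axis, 1 = shortest), 1 line for each library. BE 6 (dashed, open triangles) runs with the 3 PBS lines near 0, and the other 5 exosome libraries fall from 0.21 to 0.29 in the shortest bin to -0.15 to -0.10 in the longest.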

How the data were processed

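The authors deposited 1 table that lists, gene by gene, reads counted and FPKM in 9 libraries of testis RNA. Per the file headers the counts are whole reads per gene, and the deposited FPKM values are those counts per kilobase scaled to the library. Bowtie 0.12.2 and build mm8 are named in the submitters' processing notes, whereas the coordinates are those of GRCm38. The sources used here name no counting program and no strand setting. The labels' extraction text speaks of retina, although the tissue is given as testis.

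Counts of 14570 genes (at least 98.6% of the total in every library) were tested with edgeR 4.0.16 (R 4.3.3, quasi-likelihood, TMM, two-sided). The model had a term for the side, and Benjamini-Hochberg adjustment ran over all genes tested with a threshold of 0.05. A second model with 3 groups gave BE and BdE each against PBS and against each other. The fit gave a biological coefficient of variation of 0.283, with 2.49 prior degrees of freedom. Alternatives used limma 3.58.1 and DESeq2 1.42.0, other normalizations and filters, a replicate block, a length offset and each library left out. The test was checked on simulated counts.

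Gene length was taken from the ratio of count to FPKM. Named genes are those past the threshold whose sides do not overlap, filled to 10 in each direction by smallest p, and up to 4 members of each list by smallest p with its 2 most abundant. The same rule was applied without BE 6. The text gives a choice of the genes this rule takes, and some are not reported here. The members and the 49 gene lists were chosen with earlier results of these data known. Promoter sequences are those of RefSeq.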

Additional observations from a re-analysis of the deposited data

Results flagged for a closer look

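Among the 6 exosome libraries, 1 library lay farther from the rest than the gap test allows in 22 of the genes named. Such a test picks out about 1 in 20 groups by chance, and many genes were looked at. BE 6 was the one that lay apart in 17 of them. Many of the genes named were picked in the fit without BE 6, so this count is shaped by that choice. Over all genes tested BE 6 stood apart in 8.44%, and BdE 5, the next, in 1.97%.

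BE 6 was high in Abl1 (FPKM 13.4 against 9.29 to 9.85 in the other 5), Ablim1 (2.44 against 0.271 to 0.453), Steap3 (2.84 against 0.207 to 0.524), Fads2 (460.4 against 132 to 205), Me1 (271 against 145 to 181), Adgre1 (6.86 against 1.21 to 1.81), Col3a1 (14.4 against 4.70 to 6.38), Lamp1 (218 against 112 to 139), Cltc (30.7 against 14.2 to 16.2), Cd300ld4 (4.69 against 0.438 or less) and Cd300ld5 (5.21 against 0.147 to 0.409). In Abl1 BE 6 lay farther from PBS than the others, and in the other 10 genes on the PBS side of the others or above PBS. It was low in Slc39a9 (1.88 against 3.89 to 4.86), Amn1 (0.434 against 1.22 to 1.53), Yy2 (0.103 against 1.37 to 1.58), Snhg20 (2.55 against 11.8 to 15.9), mt-Co1 (17318 against 30128 to 36092) and mt-Nd1 (5129 against 8967 to 10952). BE 6 lay apart as a library in the mitochondrial share of its counts (7.19% against 11.8 to 14.5%). It also did so in the rank correlation of gene length with log2 CPM minus the gene's 9-library mean (0.233 against -0.239 to -0.0864).

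BdE 5 was low in Smcp (2.03 against 42.3 to 185) and Odf1 (1.01 against 18.2 to 79.5). BdE 6 was high in Oas2 (4.86 against 2.36 to 2.81). BE 8 was low in Ube2g2 (15.8 against 22.7 to 25.3), and BE 7 in Myl9 (125 against 284 to 319).

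Prrc2b differed between the 2 kinds of exosome by a test of the difference itself (BdE minus BE -1.94, edgeR adjusted p = 0.0146), with BE above PBS and BdE below it. Its call ended in 4 of 12 alternatives.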

How the results depend on the processing

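The count of changed genes depended most on BE 6. With 1 library left out, the exosome count ran from 1 to 4982. It was 4982 without BE 6, 9 without BP 5, 1 without BP 6 or BE 7, and 2 or 3 without any of the other 5. DESeq2 gave 1032, and the other scalings, filters and limma fits gave 2 or 3. On the 8 libraries without BE 6, alternatives chosen after seeing the data gave 4616 (length trend taken out), 5841 (DESeq2) and 5083 (limma on log2(FPKM+1)). The leave-one-out counts ran from 0 to 4351 for BE against PBS, from 0 to 3257 for BdE against PBS and from 0 to 6 for BdE against BE; DESeq2 gave 60, 389 and 25. With the length trend taken out BdE against PBS gave 2.

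The labels do not say that replicate numbers pair the libraries. Residuals of same-numbered libraries correlated at -0.0973 to 0.21 over 7 pairs, and those of other numbers at -0.175 to 0.18, so no pairing was assumed. With a replicate block 1 gene was called for exosome against PBS, 0 for BE against PBS, 0 for BdE against PBS and 0 for BdE against BE. Abl1 then had an edgeR adjusted p of 0.12.

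Of 84 genes named, 81 kept their direction in every alternative, and mt-Co1 was at 0.00 with quantile normalization. Many were named for sides that do not overlap, with or without BE 6, which favours a kept direction. Myl9 turned to 0.054 without BE 7 and was as low as -0.14 in the other leave-one-out fits. Insl3 turned to -0.41 with quantile normalization, -0.013 with the length trend taken out, and -0.041 when BE 6 was left out as well. The causes were not tested.

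With 3 PBS libraries, and BE 6 near them, a gene that misses the threshold is not shown to be unchanged. Genes with few counts, such as Prm1 with 0 to 21, could not be tested.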
